A study of Mus musculus with 768 samples.

Results

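Malat1, Neat1, Miat, Snhg11 and Rn45s were followed across single nuclei of the mouse striatum, as 5 rows, matched by symbol, of a table of 24489 genes. The first 4 are long non-coding RNAs, and Rn45s is the entry for the 45S precursor of ribosomal RNA. Single nuclei came from untreated C57BL/6 mice of the genotypes Oprm1-Cre:H2BG and Slc32a1-Cre:H2BG, with 768 wells shared evenly between them. The Oprm1-Cre animals were meant to bring in neurons of the patches, the compartment of the striatum rich in mu opioid receptor, and the Slc32a1-Cre animals GABAergic neurons. Cre acts wherever the gene that drives it is or was active, so neither group is a pure cell type. The labels do not spell out H2BG, and they give no animal, age or sex. Each genotype filled 1 plate and was treated as 1 sample. Plate, animals, sex and genotype therefore cannot be told apart. Nuclei of a plate do not count as replicates, and no test was run between groups.

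Wells with at least 1000 genes and 20000 reads on genes were kept, 736 nuclei in all, and 29 Oprm1-Cre and 3 Slc32a1-Cre wells were left out. The median depth was 169398 reads on genes (22727 to 581313) and 3761 genes in Oprm1-Cre nuclei, against 175337 reads (34513 to 487842) and 3424 genes in Slc32a1-Cre nuclei. ERCC spike-ins, synthetic RNAs added to the wells, made up a median of 23.9% of reads in Oprm1-Cre nuclei and 22.2% in Slc32a1-Cre nuclei. Most nuclei were spiny projection neurons (SPNs), the output neurons of the striatum, of the direct-pathway type with dopamine receptor D1 or the indirect-pathway type with receptor D2. Classes were built without the 5 RNAs, and 694 nuclei were SPN-like, 360 of them Slc32a1-Cre. Of Oprm1-Cre nuclei 83.7% were D1-like and 6.76%, 24 nuclei, D2-like, against 51.2% D1-like and 38.8% D2-like Slc32a1-Cre nuclei. Interneuron-like nuclei numbered 14 in Oprm1-Cre and 16 in Slc32a1-Cre. Drd1a and Adora2a are among the markers that set these names, so their levels describe the classes and are no check of them. Drd1a had a median of 1703 CPM (counts per 1000000 reads on genes) in Oprm1-Cre D1-like nuclei and 1926 CPM in Slc32a1-Cre ones, and Adora2a 1485 and 1601 CPM in the D2-like nuclei of the 2 plates.

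Malat1 gathers in nuclear speckles, the bodies where splicing factors are stored, and is among the most abundant nuclear RNAs of neurons. Neat1 is the scaffold around which paraspeckle proteins assemble, and Miat, also called Gomafu, forms its own nuclear foci in neurons and binds splicing factors. Snhg11 is a neuron-enriched transcript that hosts small nucleolar RNA genes, and the 45S precursor is made by RNA polymerase I in the nucleolus and cut into the mature ribosomal RNAs. The counts do not show where a read fell on its gene, so the Rn45s row cannot tell uncut precursor from mature ribosomal RNA. No cytoplasmic fraction was measured, so nuclear retention itself was not tested.

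In mm10 (GENCODE vM21), Malat1 is a gene of 1 exon at chr19:5795690-5802672 on the minus strand, and its longest transcript has 6983 nt. Neat1 lies on the same strand at chr19:5824708-5845478, also with 1 exon in its longest transcript of 20771 nt, and 22035 bases separate the 2 genes. Miat is a gene of the minus strand at chr5:112213228-112229395, with 7 exons and 9163 nt in its longest transcript. Snhg11 is a gene of the plus strand at chr2:158375638-158386145, with 5 exons and 5864 nt, and 2 small nucleolar RNA genes lie within it. GENCODE lists it as protein-coding and RefSeq as a long non-coding RNA. Miat shares 13935 bases with Gm26953 on the opposite strand, and Malat1 shares 453 bases with Gm37376. The sources used here do not say whether counting used strand, so reads from these antisense genes cannot be told apart from those of Miat and Malat1. Rn45s has no position in the annotation used.

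Mature Malat1 ends in a triple helix and carries no poly(A) tail. The longest stretch of A in the longest annotated transcript, 12 bases from position 6674, lies before the annotated end. It is shown in capitals. Where the mature RNA ends was not tested, so the stretch may lie inside the mature RNA or at its end.
Malat1, chr19:5795968-5796049, minus strand: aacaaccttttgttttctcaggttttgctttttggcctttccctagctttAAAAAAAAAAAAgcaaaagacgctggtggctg
Miat is known for repeats of UACUAAC, the branch-point sequence that splicing factor SF1 binds. The letters TACTAAC were found 6 times in the longest Miat transcript, between its positions 4941 and 5623, and are in capitals below.
Miat copy 1, chr5:112217432-112217461, minus strand: tgtgattaaccTACTAACcaacccagggct
Miat copy 2, chr5:112217332-112217361, minus strand: cgagcatgtccTACTAACcccgcagcagcc
Miat copy 3, chr5:112217307-112217336, minus strand: cagccaaacccTACTAACtctgcaggccag
Miat copy 4, chr5:112216784-112216813, minus strand: tgatgctgtgcTACTAACccggccctacta
Miat copy 5, chr5:112216770-112216799, minus strand: taacccggcccTACTAACtggtttctcttc
Miat copy 6, chr5:112216750-112216779, minus strand: gtttctcttctTACTAACccagccctgccg
Miat held 0.655 copies per kb. Of 71 annotated lincRNA genes of at least 5000 nt, 11 held a copy, Miat was the only 1 with 6, and none had more per kb. A match is a description of the sequence and not a measured binding site.

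Malat1 and Snhg11 varied together from nucleus to nucleus, as given further on, so their RefSeq promoter windows are shown side by side (GRCm38.p6, equal to mm10 in coordinates). Capitals mark TGACG, the core of a cAMP response element, on either strand.
Malat1 promoter, chr19:5802623-5802922, minus strand: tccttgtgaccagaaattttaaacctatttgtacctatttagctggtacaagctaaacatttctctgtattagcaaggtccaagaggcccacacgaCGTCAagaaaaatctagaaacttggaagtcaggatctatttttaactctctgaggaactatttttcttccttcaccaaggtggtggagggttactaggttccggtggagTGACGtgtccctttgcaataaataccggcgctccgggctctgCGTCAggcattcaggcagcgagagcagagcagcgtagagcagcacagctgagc
Snhg11 promoter, chr2:158375463-158375762, plus strand: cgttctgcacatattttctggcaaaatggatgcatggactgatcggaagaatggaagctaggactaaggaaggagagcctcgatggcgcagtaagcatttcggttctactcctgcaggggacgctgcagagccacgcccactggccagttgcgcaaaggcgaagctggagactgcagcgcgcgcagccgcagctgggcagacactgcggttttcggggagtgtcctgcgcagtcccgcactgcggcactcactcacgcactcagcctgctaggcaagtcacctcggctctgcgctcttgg
The Malat1 window has 47% G and C, 10 CpG and 3 TGACG, and the Snhg11 window 60% G and C, 21 CpG and no TGACG. Of 32851 promoter windows, 20.8% held TGACG. Neither window held TATAAA, which is in 13.6% of all windows, CCAAT, which is in 37.4%, or GGGCGG, which is in 35.7%, on either strand.

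The 5 RNAs took 9.62% of all gene reads of Oprm1-Cre SPN-like nuclei and 6.85% of those of Slc32a1-Cre ones. Per nucleus the share ran from 1.97% to 26.1% (median 10.1%) in Oprm1-Cre nuclei and from 1.88% to 19.6% (median 7.27%) in Slc32a1-Cre nuclei. Malat1, Rn45s and Snhg11 had reads in every kept nucleus, and Miat and Neat1 were at 0 in most SPN-like nuclei. Values are shares of reads and are not corrected for transcript length, so they are compared between nuclei and not between the RNAs.

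Malat1 drew more reads than any other gene in every class of both plates. In D1-like nuclei it ranged from 2332 to 209405 CPM (median 76512) for Oprm1-Cre and from 11837 to 148850 CPM (median 51114) for Slc32a1-Cre. In D2-like nuclei the range was 16213 to 117952 CPM (median 75988) in Oprm1-Cre nuclei and 13212 to 108756 CPM (median 53936) in Slc32a1-Cre nuclei. The 2 SPN types overlapped almost whole within a plate, and the plates were shifted against each other but overlapped. Among Oprm1-Cre SPN-like nuclei, 77.8% lay above the Slc32a1-Cre median, and 13.6% of Slc32a1-Cre ones lay above the Oprm1-Cre median. Its level varied less than that of most high genes. The coefficient of variation over D1-like nuclei was 0.40 in the Oprm1-Cre plate and 0.39 in the Slc32a1-Cre plate, against a median of 0.65 and 0.69 over the 100 genes with the most reads, of which 1 and 2 had a lower value. The next gene by mean was Rn45s with 14245 CPM in Oprm1-Cre and Snhg11 with 12598 CPM in Slc32a1-Cre. Malat1 had means of 78682 and 54793 CPM. No gene of like level was compared, so evenness for its level cannot be judged.

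Malat1 differed more between clusters than between plates over the 6 SPN-like clusters with at least 10 nuclei of each plate. Of these, cluster 5, led by Pi15, had the most, 116900 CPM in Oprm1-Cre nuclei and 85181 CPM in Slc32a1-Cre nuclei. Cluster 1, led by Ncaph, followed with 90208 CPM in Oprm1-Cre nuclei, which make up 92.8% of it, and 75560 CPM in 11 Slc32a1-Cre nuclei. Cluster 4, led by Mr1, had the least of the 6, 40239 CPM in Oprm1-Cre and 35425 CPM in Slc32a1-Cre nuclei. Its nuclei also had the most genes of these 3 clusters, a median of 5143 against 3530 in cluster 1 and 4051 in cluster 5. Median reads on genes were 266658 in cluster 4, 155702 in cluster 1 and 127048 in cluster 5, the reverse order of their Malat1 levels. The part of depth in these differences was not tested.

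Rn45s, the ribosomal RNA entry, showed the clearest separation of the plates. In D1-like nuclei it ran from 3516 to 66292 CPM (median 12914) for Oprm1-Cre and from 2852 to 77449 CPM (median 5362) for Slc32a1-Cre. In D2-like nuclei it ran from 6376 to 41361 CPM (median 9854) in Oprm1-Cre nuclei and from 2867 to 19404 CPM (median 5298) in Slc32a1-Cre nuclei. The lower quartile of Oprm1-Cre SPN-like nuclei, 9573 CPM, lay above the upper quartile of Slc32a1-Cre ones, 7266 CPM, and 97.9% of Oprm1-Cre nuclei exceeded the Slc32a1-Cre median. The single highest value of the Slc32a1-Cre plate, 77449 CPM, came from a nucleus with 34513 reads on genes and 49.2% ERCC reads, and the next nucleus had 27689 CPM.

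Snhg11 overlapped between the plates in both SPN types. Its D1-like nuclei held 1867 to 31033 CPM (median 9905) in the Oprm1-Cre plate and 5.86 to 35264 CPM (median 12642) in the Slc32a1-Cre plate. Its D2-like nuclei held 2944 to 33091 CPM (median 13980) in Oprm1-Cre and 915 to 27674 CPM (median 12865) in Slc32a1-Cre. The lowest value, 5.86 CPM, is 1 read in a D1-like nucleus of otherwise usual depth, with 4897 genes and 170552 reads on genes.

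**Figure D1:**
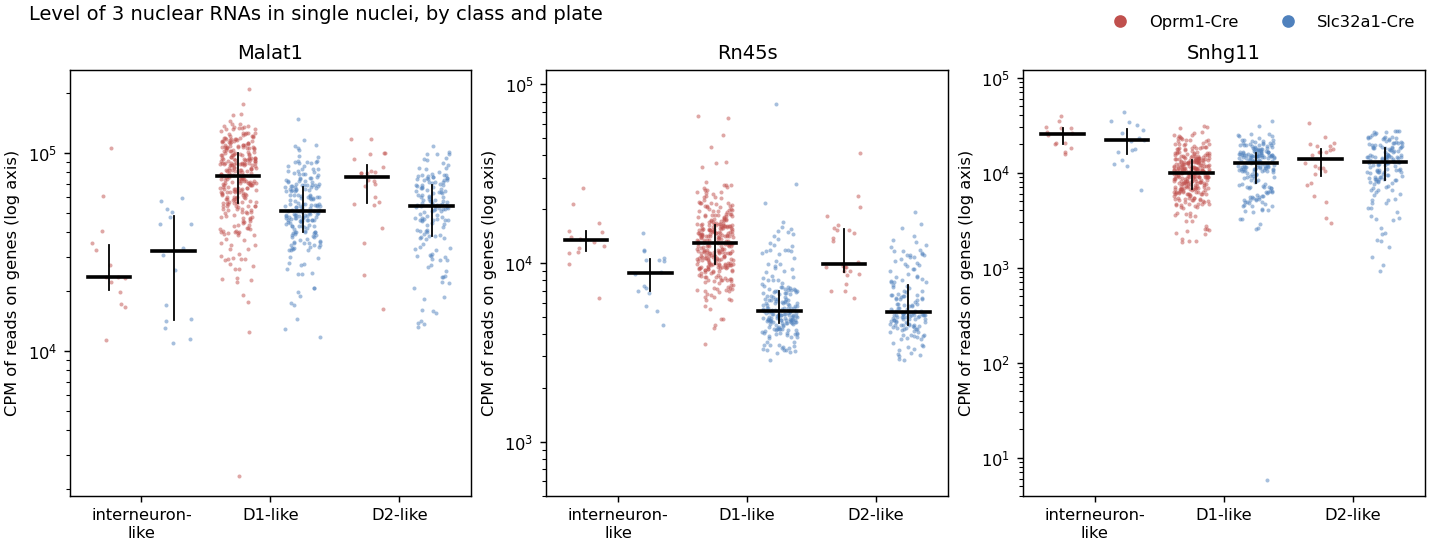
Malat1, Rn45s and Snhg11 in single nuclei (CPM of reads on genes, log axis) by class, with Oprm1-Cre nuclei in red and Slc32a1-Cre nuclei in blue; horizontal bars are medians and vertical bars quartiles. Malat1 is lower and Snhg11 higher in interneuron-like nuclei than in D1-like and D2-like ones, and Rn45s separates the plates, with D1-like medians of 12914 CPM in Oprm1-Cre and 5362 CPM in Slc32a1-Cre.

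Miat reads were found in a minority of SPN-like nuclei, and in none of the 32 wells left out. In D1-like nuclei a read was present in 78 Oprm1-Cre nuclei (26.3%, exact binomial 95% interval 21.3% to 31.7%) and in 31 Slc32a1-Cre nuclei (15.9%, 11.1% to 21.8%). With each nucleus thinned to 50000 reads the shares were 24.1% and 11.3%. In D2-like nuclei it was present in 8 of 24 Oprm1-Cre nuclei (33.3%, 15.6% to 55.3%) and 11 Slc32a1-Cre nuclei (7.43%, 3.77% to 12.9%). These intervals describe the nuclei of each plate and are no test between genotypes, which have 1 sample each. All intervals given here cover counting error only, and reads without molecular identifiers are not independent molecules. Where Miat was found it could be well above 1 read. The highest D1-like nucleus had 739 CPM, 73 reads, in the Oprm1-Cre plate and 394 CPM, 52 reads, in the Slc32a1-Cre plate. Nuclei with Miat also had more genes, a median of 3994 against 3676 without it in the Oprm1-Cre plate and 3692 against 3375 in the Slc32a1-Cre plate.

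Neat1 was close to absent from SPN-like nuclei. It had reads in 13 D1-like Oprm1-Cre nuclei (4.38%, 2.35% to 7.37%) and in 5 D1-like Slc32a1-Cre nuclei (2.56%, 0.838% to 5.88%). The highest Oprm1-Cre nucleus had 503 CPM and the highest Slc32a1-Cre nucleus 365.1 CPM. No D2-like nucleus of either plate had a read, and such a 0 still allows shares of up to 12.5% in Oprm1-Cre and 2.03% in Slc32a1-Cre. The D1-like share lies inside the Oprm1-Cre limit and its interval reaches below the Slc32a1-Cre limit. Each plate was taken alone here, and a difference between the SPN types was not tested.

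Neat1 is abundant in glia in brain tissue, so 30 glial, vessel and ependymal markers were summed in the same nuclei. Their summed level had a median of 209.7 CPM in the 13 Oprm1-Cre nuclei with Neat1 and 258.6 CPM in the other SPN-like nuclei of that plate. The sums ran from 0 to 891 CPM beside Neat1 and from 0 to 4829 CPM in the rest, with a read of 10 and of 24 of the 30 markers. In the Slc32a1-Cre plate the medians were 0 CPM in the 5 nuclei with Neat1 and 135.5 CPM in the rest (0 to 551 and 0 to 8619 CPM, with a read of 2 and of 26 markers). Nuclei with Miat had 185.8 CPM against 281.2 CPM in the rest of the Oprm1-Cre plate, and 177.1 CPM against 133.96 CPM in the Slc32a1-Cre plate. The medians were lower beside Neat1 in both plates, and beside Miat they were lower in the Oprm1-Cre plate and higher in the Slc32a1-Cre plate. SPN-like nuclei exclude those in which a class outside the SPNs scored above the SPN score. The kept nuclei with the most Neat1 are unclassed and so are not among them. These sums therefore cannot decide whether Neat1 goes with glial markers. A larger group of nuclei also has more chances of a read of each marker.

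**Figure D2:**
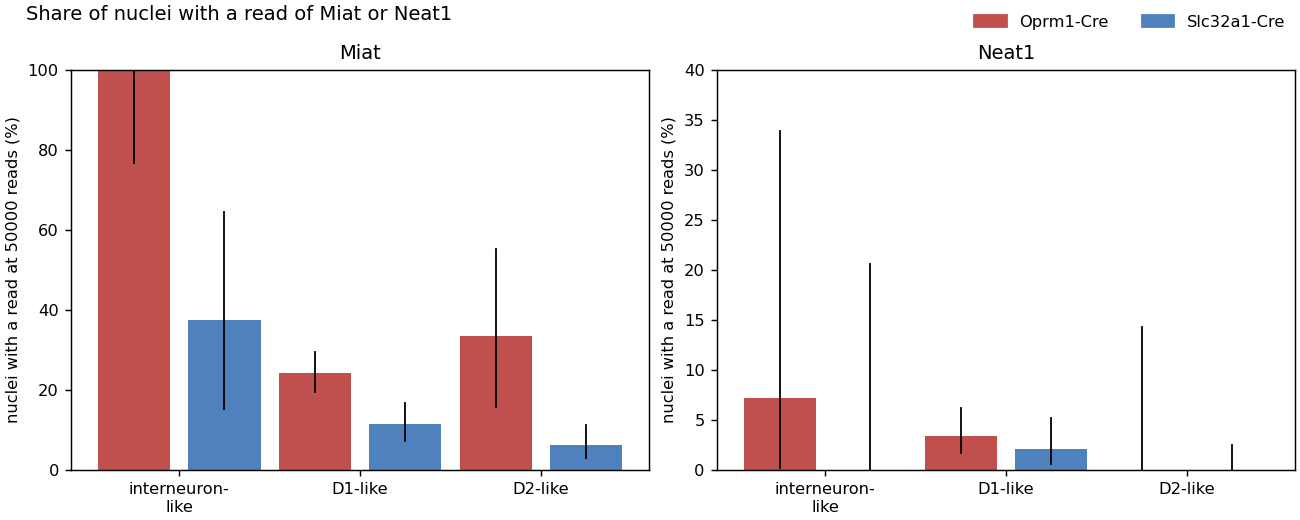
Share of nuclei with at least 1 read of Miat (left) or Neat1 (right) after thinning to 50000 reads, by class, with Oprm1-Cre left of Slc32a1-Cre in each pair; black lines are exact binomial 95% intervals, and the axes of the 2 panels differ. Miat was read in 100% of Oprm1-Cre and 37.5% of Slc32a1-Cre interneuron-like nuclei, and Neat1 in no D2-like nucleus.

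Between the plates, reads were summed over the nuclei of a class and the log2 ratio of Oprm1-Cre over Slc32a1-Cre was taken with 5 CPM added to both. This understates the ratio of low RNAs. In D1-like nuclei Malat1 had 72592 CPM in Oprm1-Cre (exact Poisson 95% interval 72521 to 72663) and 50898 CPM in Slc32a1-Cre (50823 to 50972), a log2 ratio of 0.51. Rn45s had 13580 CPM in Oprm1-Cre (13550 to 13611) and 6489 CPM in Slc32a1-Cre (6462 to 6515), a log2 ratio of 1.06. Miat had 47.2 CPM in Oprm1-Cre (45.36 to 49.02) and 11.4 CPM in Slc32a1-Cre (10.4 to 12.6), a log2 ratio of 1.67. Neat1 had 9.94 CPM in Oprm1-Cre (9.12 to 10.8) and 4.27 CPM in Slc32a1-Cre (3.612 to 5.003), a log2 ratio of 0.69. Snhg11 went the other way by a small amount, with 10290 CPM in Oprm1-Cre (10264 to 10317), 11812 CPM in Slc32a1-Cre (11776 to 11848) and a log2 ratio of -0.20. Thus 4 of 5 members lay above a log2 ratio of 0.5 and none below -0.5, against 27.1% of all 11009 genes past 0.5 either way. The count was 3 of 5 under 6 alternatives and 2 by medians of nuclei. Neat1 dropped out with a ratio of 0.43 by the mean of CPM of nuclei, 0.39 with nuclei thinned to 50000 reads, 0.33 without the highest and lowest 1% of nuclei and -0.14 in plate rows A to H, and Malat1 dropped out with 0.35 per ERCC read and 0.27 without cluster 1. The members' median was 0.69 and that of all genes -0.0033. In all SPN-like nuclei together the count was again 4 of 5, with 22.1% of 10975 genes past 0.5, and the log2 ratios were 0.52 for Malat1, 1.06 for Rn45s, 1.84 for Miat, 0.95 for Neat1 and -0.18 for Snhg11.

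In D2-like nuclei Malat1 had 68291 CPM in Oprm1-Cre and 48872 CPM in Slc32a1-Cre, a log2 ratio of 0.48. Rn45s had 13595 and 6447 CPM in the 2 plates (log2 ratio 1.08), Miat 61.1 and 7.57 CPM (log2 ratio 2.39) and Snhg11 13242 and 11931 CPM (log2 ratio 0.15). Of these 4, Rn45s and Miat passed 0.5, against 52.7% of 10975 genes. The Oprm1-Cre sum rests on 24 nuclei. By medians of nuclei Rn45s had a ratio of 0.89 here, against 1.27 for the D1-like class. Snhg11 lay on either side of 0 in the 2 SPN types.

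Malat1 sat at the limit of 0.5 itself. Its ratio in SPN-like nuclei was 0.38 per ERCC read and 0.49 with DESeq2's size factors. In D1-like nuclei it was 0.27 without cluster 1, which is 92.8% Oprm1-Cre. The marker scores class this cluster as SPN-like. Vcan is the only marker of oligodendrocyte precursors among its 10 leading genes. Cluster by cluster, over the 6 clusters with at least 10 nuclei of each plate, Malat1 was higher in Oprm1-Cre in all 6, by log2 ratios of 0.18 to 0.58. Rn45s was past 0.5 in all 6, from 0.72 to 1.22, and Snhg11 ran from -0.36 to 0.14. Miat ran from -0.03 to 3.53 with 5 clusters past 0.5, and Neat1 from -1.39 to 2.44, and both rest on few nuclei. The median nucleus of both plates has no read of Miat or Neat1, and by medians of nuclei their log2 ratio in SPN-like nuclei was 0.

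**Figure D3:**
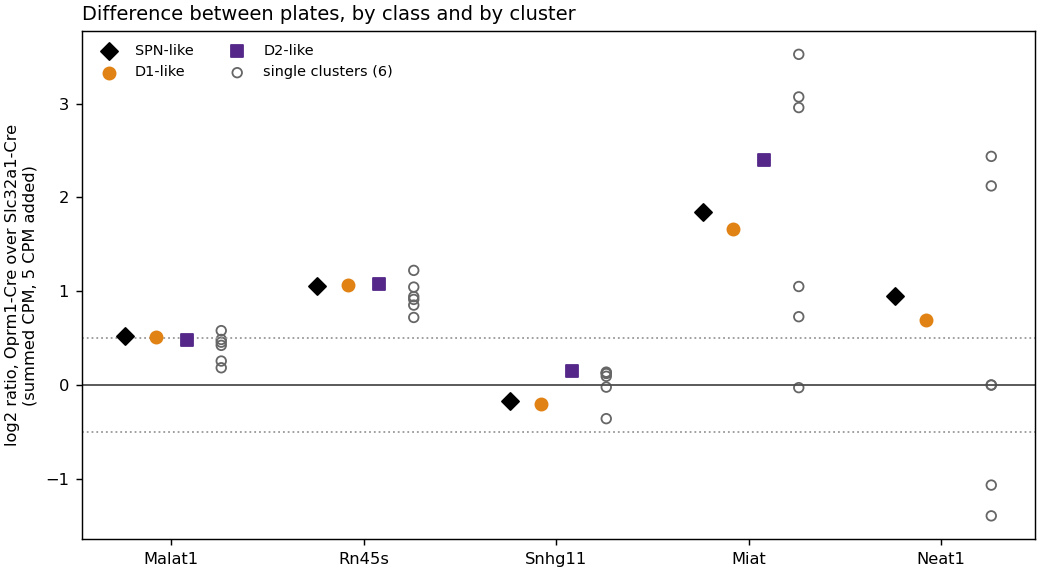
Log2 ratio of summed CPM, Oprm1-Cre over Slc32a1-Cre, with 5 CPM added, for each RNA in SPN-like, D1-like and D2-like nuclei (filled) and in the 6 single clusters (open); dotted lines mark 0.5 either way, and Neat1 has no D2-like point since it was at 0 there. Rn45s lies past 0.5 in every class and cluster, Malat1 lies around 0.5 and Snhg11 around 0.

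Within a plate the ratios between the 2 SPN types lay within 0.5 for each RNA but Neat1. In the Oprm1-Cre plate the log2 ratio of D1-like over D2-like nuclei was 0.09 for Malat1, -0.00 for Rn45s, -0.36 for Snhg11 and -0.34 for Miat. Neat1 had 9.94 CPM in D1-like nuclei and no read in D2-like ones, where 3 reads over the group would be 0.727 CPM. It was the only member past 0.5, 1 of 5, against 49.8% of 11100 genes. Its reads came from 13 D1-like nuclei, and no fold is given, since D2-like nuclei had no read and the shares of nuclei with a read were not tested. In the Slc32a1-Cre plate none of 4 measured members passed 0.5, against 25.2% of 10891 genes. There the ratio was 0.06 for Malat1, 0.01 for Rn45s, -0.01 for Snhg11 and 0.39 for Miat. Neat1, under the 5 CPM needed to be counted, had 4.27 CPM in D1-like nuclei, from 5 nuclei, and no read in D2-like ones, where 3 reads would be 0.101 CPM.

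Interneuron-like nuclei had less Malat1 and more Snhg11 and Miat than SPN-like nuclei of the same plate. Lhx6, a factor of interneuron identity, had a median of 238.8 CPM in the 14 Oprm1-Cre nuclei and 235.3 CPM in the 16 Slc32a1-Cre nuclei. Malat1 ranged from 11426 to 106468 CPM (median 23687) in Oprm1-Cre interneuron-like nuclei, against a median of 76408 CPM in SPN-like nuclei of that plate. In Slc32a1-Cre interneuron-like nuclei it ranged from 11012 to 59462 CPM (median 31898), against 52522 CPM in SPN-like nuclei. It lay under the SPN-like median in 13 of 14 Oprm1-Cre and 14 of 16 Slc32a1-Cre nuclei. The log2 ratio of the sums was -1.21 in Oprm1-Cre and -0.76 in Slc32a1-Cre.

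Snhg11 in interneuron-like nuclei ranged from 15720 to 39368 CPM (median 25538) in Oprm1-Cre nuclei and from 6597 to 43002 CPM (median 21933) in the Slc32a1-Cre plate. All 14 Oprm1-Cre nuclei and 11 of 16 Slc32a1-Cre nuclei lay above the upper quartile of the SPN-like nuclei of their plate. The log2 ratio over SPN-like nuclei was 1.21 in Oprm1-Cre and 0.82 in Slc32a1-Cre. Miat ranged from 7.93 to 412 CPM (median 188.1) in the Oprm1-Cre interneuron-like nuclei, all 14 of which had a read, and from 0 to 610 CPM (median 11.5) in the Slc32a1-Cre ones, of which 10 of 16 had a read. Its summed level of 205.2 CPM in interneuron-like and 47.1 CPM in SPN-like Oprm1-Cre nuclei gave a log2 ratio of 2.01, and 87.05 and 9.53 CPM in Slc32a1-Cre nuclei gave 2.66. Rn45s had a median of 13395 CPM in interneuron-like and 12671 CPM in SPN-like Oprm1-Cre nuclei, with 8 of 14 interneuron-like nuclei above the SPN-like median and a log2 ratio of 0.02. In the Slc32a1-Cre plate it had 8740 CPM in interneuron-like and 5386 CPM in SPN-like nuclei, with 15 of 16 above the SPN-like median and 11 above the upper quartile, and a log2 ratio of 0.43. Per 1000 ERCC reads the Slc32a1-Cre medians were 38.8 and 20.3. Neat1 had 51 reads in 1 Oprm1-Cre interneuron-like nucleus and none in the 16 of the Slc32a1-Cre plate, which allows up to 18.8% of nuclei.

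In the Oprm1-Cre plate 3 of 5 members lay above 0.5 and 1 below -0.5, against 71% of 11568 genes past either. In the Slc32a1-Cre plate 2 of 4 lay above and 1 below, against 67.2% of 11497 genes. A difference past 0.5 between these classes is therefore common among all genes, and the counts of members lie near that background. The directions for Malat1 and Snhg11 were also present per ERCC read. Malat1 had a median of 85.1 reads per 1000 ERCC reads in interneuron-like and 242.1 in SPN-like Oprm1-Cre nuclei, and 128.8 and 182.3 in Slc32a1-Cre nuclei. Snhg11 had 74.2 and 32.6 reads per 1000 ERCC reads in interneuron-like and SPN-like Oprm1-Cre nuclei, and 94.9 and 43.9 in Slc32a1-Cre nuclei. The number of genes was close in the Oprm1-Cre plate, with a median of 3827 in interneuron-like and 3762 in SPN-like nuclei. In the Slc32a1-Cre plate it was higher in interneuron-like nuclei, 3788 against 3403. The 14 Oprm1-Cre nuclei all belong to cluster 7, led by Npy and Sst, while the Slc32a1-Cre plate has 7 nuclei there and 9 in cluster 9, led by Nxph1. Malat1 had a median of 33215 CPM in the 7 and 30581 CPM in the 9, and Snhg11 22115 and 17563 CPM.

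The Malat1 share was lower in nuclei with more genes or more reads on genes and higher in nuclei with a higher ERCC share. With nuclei cut by their quartiles of ERCC share, low to high, its median was 59939, 74727, 81433 and 84111 CPM in Oprm1-Cre SPN-like nuclei and 38018, 52331, 58355 and 62112 CPM in Slc32a1-Cre ones. Per 1000 ERCC reads the order turned round, with 321.7 in the lowest and 200.7 in the highest group of Oprm1-Cre nuclei. In those of Slc32a1-Cre the values were 216.9 and 144.3. ERCC reads both set these groups and are the denominator here, which by itself favours such a fall. Rn45s and Snhg11 were also lower in the highest than in the lowest group of both plates. The turn is therefore no result about Malat1. Spearman's rho across nuclei, which share library, depth and total, was 0.25 with ERCC share and -0.16 with genes in Oprm1-Cre SPN-like nuclei, and 0.50 and -0.34 in the 360 of Slc32a1-Cre. With reads on genes, the total from which the share is taken, rho was -0.40 in Oprm1-Cre and -0.48 in Slc32a1-Cre nuclei. From the lowest to the highest quartile group of these reads, the Malat1 median went from 89225 to 55988 CPM in Oprm1-Cre. In Slc32a1-Cre it went from 63289 to 36664 CPM. Cut by quartiles of gene number, low to high, Malat1 had 76908, 79363, 82523 and 56977 CPM in Oprm1-Cre and 59810, 55457, 50659 and 40186 CPM in Slc32a1-Cre, so the Oprm1-Cre nuclei stood lower in the highest group alone. Genes and ERCC share were themselves tied, with rho of -0.80 in the Oprm1-Cre plate and -0.89 in the Slc32a1-Cre plate.

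Across SPN-like nuclei Malat1 was less than proportional to the other RNA. The slope of log2 Malat1 reads per ERCC read on log2 of all gene reads per ERCC read was 0.86 in Oprm1-Cre and 0.37 in Slc32a1-Cre nuclei, where 1 means a constant share. The median slope over genes with a read in at least 90% of nuclei was 1.15 and 1.17. Snhg11 had 0.88 and 0.30. In the Oprm1-Cre plate 19.9% of these genes had a lower slope than Malat1 and 21.3% than Snhg11, and in the Slc32a1-Cre plate 4.32% and 2.33%. Rn45s had slopes of 1.12 and 1.06. Its share was slightly higher in nuclei with more genes, with rho of 0.20 in Oprm1-Cre and 0.26 in Slc32a1-Cre nuclei and medians of 11137, 12914, 14348 and 14064 CPM and of 5045, 5559, 5417 and 6325 CPM by quartiles of genes, low to high. Miat had rho of 0.24 with genes in Oprm1-Cre nuclei and 0.12 in Slc32a1-Cre nuclei. Per 1000 ERCC reads, SPN-like nuclei of Oprm1-Cre and Slc32a1-Cre had medians of 242.1 and 182.3 for Malat1, 41.7 and 20.3 for Rn45s, 32.6 and 43.9 for Snhg11, and 3186 and 3449 for all genes.

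Rn45s followed the row of the plate, and in this it stood apart from every other gene. In SPN-like nuclei its median was highest in row C, 16051 CPM in Oprm1-Cre and 10644 CPM in Slc32a1-Cre, and lowest in row P, 7780 CPM in Oprm1-Cre and 4448 CPM in Slc32a1-Cre. The rho with the row, counted from A, was -0.50 in Oprm1-Cre and -0.56 in Slc32a1-Cre, over the 694 SPN-like nuclei. Among 6988 genes with at least 20 CPM in both plates, it had the lowest of all in both plates and was the only gene past 0.3 in size in both. The next gene, Camkv, had -0.25 and -0.18, Malat1 0.14 and 0.11, and Snhg11 0.03 and -0.06. The shapes differed. In the Oprm1-Cre plate row medians went down gradually, whereas in the Slc32a1-Cre plate rows A to D held medians of 6947 to 10644 CPM and rows E to P 4448 to 5629 CPM, with no overlap.

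The row pattern was there in every class, with rho of -0.50 in Oprm1-Cre and -0.54 in Slc32a1-Cre D1-like nuclei, -0.46 and -0.60 in D2-like nuclei, and -0.67 and -0.60 in the 14 and 16 interneuron-like nuclei. It was there per ERCC read too. Rows A to D had a median of 57.1 Rn45s reads per 1000 ERCC reads and rows M to P 29.7 in the Oprm1-Cre plate, and 36.3 and 13.7 in the Slc32a1-Cre plate. The CPM medians of these rows were 15709 and 9765 in Oprm1-Cre (1.61-fold) and 8331 and 4590 in Slc32a1-Cre (1.82-fold). Genes and ERCC share moved with the row as well, though less. The rho of the row with genes was -0.07 in Oprm1-Cre and -0.24 in Slc32a1-Cre, and with ERCC share 0.20 and 0.30. Their part in the Rn45s pattern was not tested beyond this: within the quartile groups of gene number rho of Rn45s with row ran from -0.57 to -0.31 in Oprm1-Cre and from -0.56 to -0.48 in Slc32a1-Cre. The difference between plates was also present within rows. Row by row, the Rn45s log2 ratio of Oprm1-Cre over Slc32a1-Cre was past 0.5 in 16 of 16 rows (0.62 to 1.46), that of Malat1 was above 0 in 16 of 16 (0.15 to 0.87) and that of Snhg11 in 5 of 16 (-0.65 to 0.30).

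**Figure D4:**
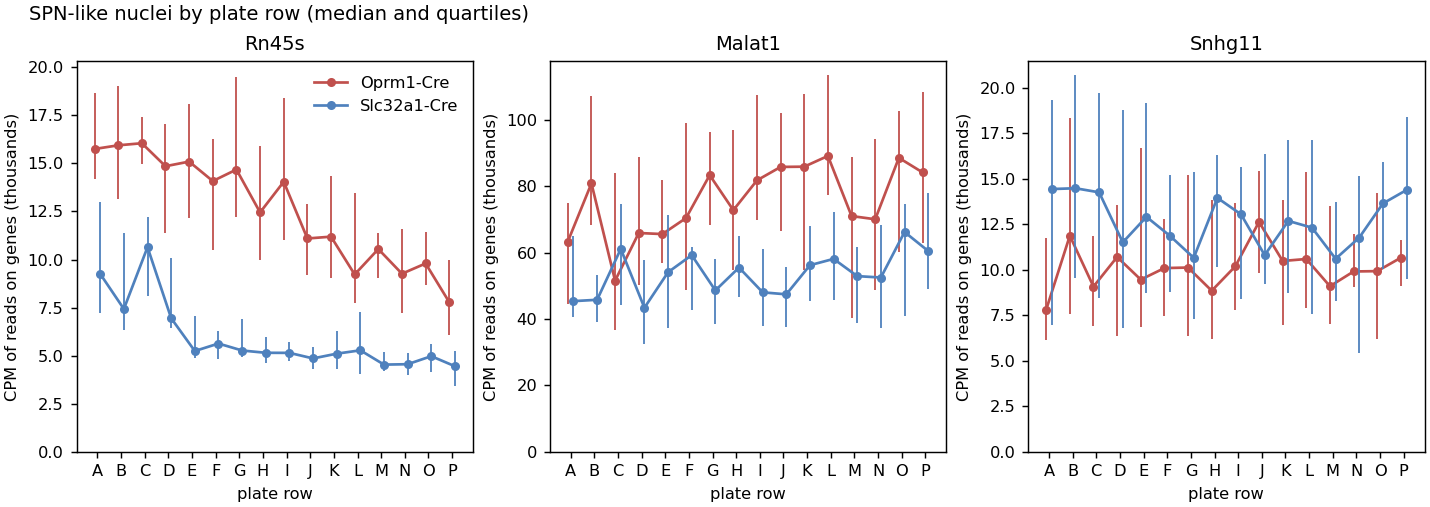
Median CPM (in units of 1000) of Rn45s, Malat1 and Snhg11 in SPN-like nuclei by plate row, with quartiles as vertical lines, Oprm1-Cre in red and Slc32a1-Cre in blue. Rn45s is highest in the upper rows and lowest in row P in both plates, with rho of -0.50 and -0.56 across nuclei. Malat1 rises weakly towards the lower rows (rho 0.14 and 0.11), and Snhg11 has rho of 0.03 and -0.06.

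Malat1 and Snhg11 varied together from nucleus to nucleus. With the 5 RNAs left out of the total, so that they do not displace each other, rho was 0.50 in Oprm1-Cre SPN-like nuclei and 0.59 in the 360 of Slc32a1-Cre. It was 0.54 and 0.52 in D1-like nuclei alone and 0.55 and 0.53 per ERCC read. Among the 6988 genes, Snhg11 was the 2nd closest to Malat1 in the Oprm1-Cre plate and the closest in the Slc32a1-Cre plate. Malat1 and Rn45s had rho of 0.22 and 0.15 with the 5 RNAs left out of the total. Per ERCC read, a denominator that both RNAs share, they had 0.36 and 0.41. The CPM of both Malat1 and Snhg11 fell with reads on genes. For Snhg11 rho was -0.14 in Oprm1-Cre and -0.38 in Slc32a1-Cre, beside -0.40 and -0.48 for Malat1. The part of depth in their shared variation was not tested. All these nuclei share a library and a depth range, and rho describes these 2 plates.

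By the lower rho of the 2 plates, the 4 genes most like Malat1 were Snhg11, Ryr3 (0.43 in Oprm1-Cre and 0.41 in Slc32a1-Cre), which encodes a calcium release channel, the cannabinoid receptor gene Cnr1 (0.49 and 0.39) and A930011O12Rik (0.52 and 0.38). For Snhg11 they were Malat1, Meg3 (0.43 and 0.60), another nuclear long non-coding RNA, Rsrp1 (0.32 and 0.41) and A930011O12Rik (0.36 and 0.31). For Rn45s they were Inf2 (0.32 and 0.28), Meg3 (0.39 and 0.25), Lars2 (0.25 and 0.32), a mitochondrial leucyl-tRNA synthetase gene, and Rnf112 (0.24 and 0.26). Miat had no close partner. Its highest were Igf2r (0.18 and 0.17), the histamine receptor gene Hrh3 (0.22 and 0.17) and Cnih3 (0.16 and 0.24). Neat1 had none above 0.13, with Cant1, Sumf1, Col6a1 and Slc7a6 between 0.11 and 0.13 in both plates. In counts this sparse, such values are no finding.

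**Figure D5:**
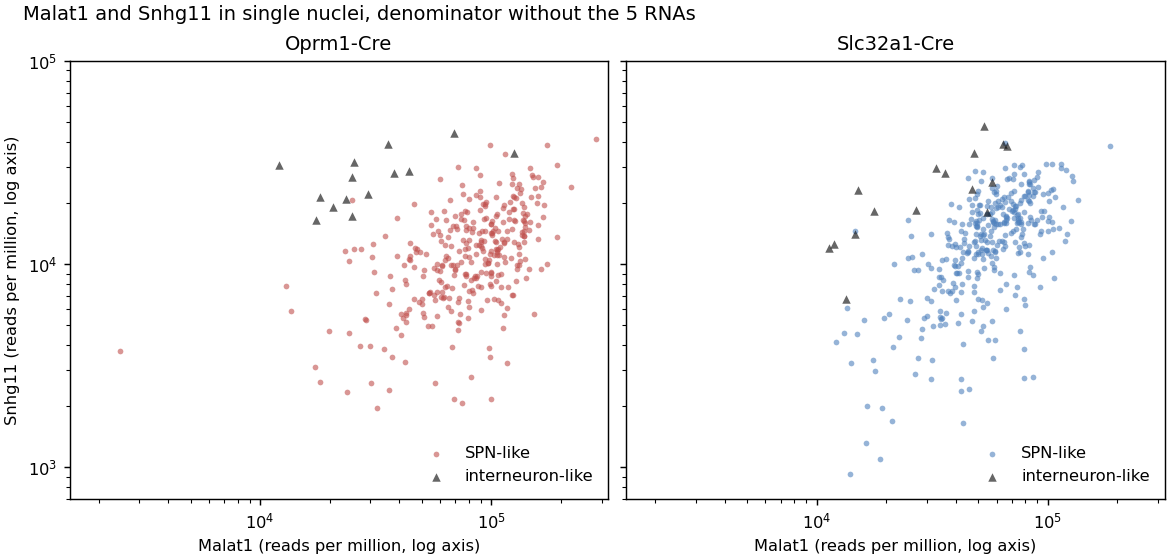
Malat1 against Snhg11 in single nuclei of each plate, in reads per 1000000 with the 5 RNAs left out of the total (both axes log), with interneuron-like nuclei as black triangles. SPN-like nuclei form a rising cloud (rho 0.50 in Oprm1-Cre and 0.59 in Slc32a1-Cre), interneuron-like nuclei lie at low Malat1 and high Snhg11, and 1 Slc32a1-Cre nucleus with 1 Snhg11 read lies under the axis.

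RNAs and proteins of the same nuclear bodies were set beside the members in D1-like nuclei, where 14.8% of all genes lay above 0.5 and 12.3% below -0.5 between the plates. Of 20 nuclear long non-coding RNAs with at least 5 CPM, the members included, 6 lay above and 2 below, with a median of 0.07. Without the members it was 3 above and 2 below of 16, with a median of -0.08. Ipw, from the imprinted Prader-Willi region, was among the highest, with 32.1 CPM in Oprm1-Cre and 6.13 CPM in Slc32a1-Cre (log2 ratio 1.74). Xist, made from the inactive X chromosome of female cells, was lowest, with 3.33 CPM in Oprm1-Cre and 2023 CPM in Slc32a1-Cre (log2 ratio -7.93), and its antisense gene Tsix had 2.35 and 10.4 CPM (log2 ratio -1.07). The plates thus differ in an RNA that marks sex, and sex cannot be told apart from genotype for any value between plates. In D2-like nuclei 8 of 20 nuclear long non-coding RNAs lay above and 3 below, with a median of 0.24, against 23.5% and 29.2% of all genes. Without the members it was 7 above and 3 below of 17, with a median of 0.0065.

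Snhg11 was also set beside other hosts of small nucleolar RNAs. Of 13 hosts with at least 5 CPM, none lay above 0.5 and 1 below -0.5 in D1-like nuclei, Snhg5 with a log2 ratio of -0.56. Snhg7 had a log2 ratio of -0.48, and the highest were Gm11974, matched to the list as an older symbol, with 0.38 and Snhg4 with 0.27. The median of the 12 hosts without Snhg11 was -0.23, beside -0.20 for Snhg11. In D2-like nuclei 1 lay above and 4 below, and the median of the 12 was -0.26, beside 0.15 for Snhg11. There Snhg7 had 13.1 CPM in Oprm1-Cre and 35.5 CPM in Slc32a1-Cre (log2 ratio -1.16), and Snhg5 had 52.8 and 110.6 CPM (-0.999). Of the small structural RNAs only 6 reached 5 CPM in D1-like nuclei, with 1 above 0.5 and none below and a median of -0.10. Snord49b had 0.50, Snord96a 0.02, Snora70 -0.26 and Snord47 -0.22.

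Most genes of proteins that bind these RNAs lay within 0.5 in D1-like nuclei, and a few lay further from 0 than Malat1. Of 15 paraspeckle protein genes in D1-like nuclei, 2 lay above 0.5 and none below (median 0.05). They were the chromatin remodeller gene Smarca4, with 146.2 CPM in Oprm1-Cre and 94.8 CPM in Slc32a1-Cre (log2 ratio 0.60), and Pspc1, with 42.8 and 27.3 CPM (0.57), which had -2.06 in D2-like nuclei. Hnrnph3 had -0.26 and Hnrnpk -0.13. Of 22 nuclear speckle protein genes, 3 lay above and 2 below (median -0.08). Pnn had 383.3 CPM in Oprm1-Cre and 249.7 CPM in Slc32a1-Cre (0.61), Acin1 48.8 and 30.4 CPM (0.61), the kinase gene Clk1 1214 and 1935 CPM (-0.67) and the splicing factor gene Srsf2 361.05 and 563 CPM (-0.63). The 3 Miat-bound splicing factors were within 0.5, with log2 ratios of 0.36 for Celf3, 0.33 for Qk and -0.14 for Sf1, and they were within 0.5 in D2-like nuclei as well (median 0.08).

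RNA polymerase I and nucleolar protein genes did not follow Rn45s. Of 21 in D1-like nuclei, 3 lay above 0.5 and 4 below, with a median of -0.19, beside 1.06 for Rn45s. Taf1a and Taf1c, subunits of the polymerase I selectivity factor, were highest, with 30.4 CPM in Oprm1-Cre and 14.9994 CPM in Slc32a1-Cre (0.82) and with 31.3 and 17.7 CPM (0.67), though Taf1c had -0.59 in D2-like nuclei. Polr1e, a polymerase I subunit gene, had 5.75 and 12.1 CPM (-0.67), and Ttf1, the termination factor gene, 18.3 and 31.5 CPM (-0.65). In D2-like nuclei 3 lay above and 7 below of 20, with a median of -0.14.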

How the data were processed

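The authors deposited raw counts, whole numbers of reads per gene and well, without molecular identifiers. The submitters' processing notes name mm10, SAMtools and Seurat. The sources used here name no aligner or counter, nor how single nuclei were amplified. The labels' protocols, written for bulk RNA, name a column kit and a stranded kit with removal of ribosomal RNA.

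Levels are CPM of reads on genes, ERCC spike-ins and eGFP left out, in 736 nuclei (355 Oprm1-Cre, 381 Slc32a1-Cre) with 22727 to 581313 reads. Clustering left the 5 RNAs out (scanpy 1.11.5, 2000 variable genes, 30 components, 15 neighbours, Leiden resolution 1, seed 1, Python 3.11.15). A gap of more than 2 between marker scores set D1-like or D2-like. This gave 334 SPN-like Oprm1-Cre nuclei (297 D1-like, 24 D2-like) and 360 Slc32a1-Cre ones (195 D1-like, 148 D2-like). No doublet caller was run, and 1 alternative leaves out 81 possible doublets. Scaling alternatives used edgeR 4.0.16 and DESeq2 1.42.0 (R 4.3.3), with no test. Named are the 5 RNAs, the 4 genes most like each (over 6988 genes), and the 2 highest and 2 lowest members of each list in D1-like nuclei; 1 of these genes is not reported here. Members, lists and comparisons were chosen with earlier results of these data known. Chosen after seeing the data were the 12 unclassed nuclei, the doublet limits, comparisons by cluster and by row band, and the alternatives by row, by cluster and for interneuron-like nuclei.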

Additional observations from a re-analysis of the deposited data

Results flagged for a closer look

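Snhg11 differed between the plates in opposite directions in the 2 SPN types. Its log2 ratio of Oprm1-Cre over Slc32a1-Cre was -0.20 in D1-like nuclei and 0.15 in D2-like nuclei, where Oprm1-Cre has 24 nuclei. The difference between these 2 ratios was not tested.

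Miat differed between the SPN types in opposite directions in the 2 plates. The log2 ratio of D1-like over D2-like nuclei was -0.34 in the Oprm1-Cre plate and 0.39 in the Slc32a1-Cre plate, from 78 and 8 D1-like and D2-like nuclei with a read in Oprm1-Cre and 31 and 11 in Slc32a1-Cre. This difference was not tested either.

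Wells that the filter left out also held reads of the 5 RNAs. In the 29 such wells of the Oprm1-Cre plate Malat1 took 1.92% of reads on genes, Rn45s 1.02% and Snhg11 0.267%, and Miat and Neat1 had none. Malat1 and Rn45s had a read in all 29. In the 27 of these wells with under 1000 reads on genes, at most 485, Malat1 took 3.86% (exact Poisson 95% interval 3.47% to 4.29%) and Rn45s 1.89% (1.62% to 2.20%). Summed in the same way, the kept SPN-like nuclei of this plate had 7.20% Malat1 and 1.35% Rn45s. The median shares were 3.91% and 1.51% in the 27 wells and 7.64% and 1.27% in these nuclei. The summed Rn45s share of the 27 wells includes 1 well of row P with 8.31%. In the 3 wells left out of the Slc32a1-Cre plate Malat1 took 8.78% of reads on genes, Neat1 1.33%, Rn45s 0.835% and Snhg11 0.0477%. All Neat1 reads lay in a single well with 24598 reads on genes and 951 genes, just under the limit of 1000 genes, where Neat1 took 1.36% of reads. The highest kept D1-like Slc32a1-Cre nucleus had 0.0365%.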

How the results depend on the processing

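The count of members past 0.5 was the same under 50 of 78 alternatives and another under 28. Between plates it ran from 2 to 4 for SPN-like nuclei (8 of 17 alternatives changed it), 2 to 4 for D1-like (7 of 17) and 1 to 3 for D2-like nuclei (8 of 16). By medians of nuclei the members past 0.5 between plates numbered 2 for SPN-like, 2 for D1-like and 1 for D2-like nuclei, and in plate rows A to H alone 2 for SPN-like nuclei. Between D1-like and D2-like Slc32a1-Cre nuclei 1 passed by the mean of CPM and 1 with 1 CPM added, against 0 as reported. Neat1 changed direction between plates, to -0.0397 over all wells with no filter and to -0.14 in D1-like nuclei of rows A to H. The cause was not tested. Over all alternatives the log2 ratio between plates in SPN-like nuclei ran from 0.92 to 1.23 for Rn45s, 0.38 to 0.57 for Malat1, -0.34 to -0.12 for Snhg11, 0 to 2.19 for Miat and -0.0397 to 1.62 for Neat1. Of interneuron-like over SPN-like nuclei Malat1 ran from -1.25 to -1.17 in Oprm1-Cre and -0.77 to -0.48 in Slc32a1-Cre, and Snhg11 from 1.13 to 1.22 and 0.77 to 1.10. Per ERCC read the median of all genes between plates moved to -0.12 in SPN-like nuclei (8.47% above 0.5 and 15.9% below, against 12.6% and 9.55% as reported) and to -0.15 in D1-like nuclei (9.43% and 20.2%, against 14.8% and 12.3%). For interneuron-like over SPN-like Slc32a1-Cre nuclei it moved to 0.18, against -0.08 (39.1% above and 30.3% below, against 30.6% and 36.6%). By medians of nuclei it was 0.29 (SPN-like), 0.12 (D1-like) and 0.95 (D2-like) between plates. No paired analysis was possible because each genotype is 1 sample, and replicate numbers of wells only name them. With at least 100000 reads per nucleus the SPN-like ratio was 1.81 for Miat and 0.98 for Neat1, against 1.84 and 0.95. The 24 D2-like Oprm1-Cre nuclei limit each value that uses them.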

Other observations

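Interneuron-like nuclei with at least 1000 CPM of Npy, a peptide of one interneuron type, were compared with the rest, a limit chosen after seeing the data. Malat1 had a median of 40507 CPM in the 3 Oprm1-Cre nuclei with Npy and 23358 CPM in the other 11, and 43744 CPM in the 5 Slc32a1-Cre nuclei with Npy and 25576 CPM in the other 11. The ranges overlapped in both plates, with 35113 to 106468 CPM against 11426 to 60812 CPM in Oprm1-Cre and 11012 to 57535 CPM against 11471 to 59462 CPM in Slc32a1-Cre. Snhg11 had medians of 26568 and 20732 CPM in Oprm1-Cre and of 23196 and 17563 CPM in Slc32a1-Cre nuclei with and without Npy.

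The 12 unclassed nuclei held the highest Neat1 and Miat values of kept nuclei in both plates and the highest Snhg11 value in Oprm1-Cre. Their marker scores went against the class of their cluster. In SPN-like clusters the SPN score was under 4 or a class outside the SPNs scored higher. In interneuron-like clusters the SPN score was at least 6. Neat1 reached 1578 CPM in an Oprm1-Cre nucleus and 2115 CPM in a Slc32a1-Cre one. The Oprm1-Cre nucleus, of an SPN-like cluster, had an SPN score of 8.84, so a class outside the SPNs scored higher still. That Slc32a1-Cre nucleus had 1771 genes and 16.3 CPM of Snhg11. Miat reached 929 CPM in Oprm1-Cre and 1193 CPM in Slc32a1-Cre, and Snhg11 58898 CPM in Oprm1-Cre and 39535 CPM in Slc32a1-Cre. The count of unclassed nuclei was 7 in Oprm1-Cre and 5 in Slc32a1-Cre, and they enter no comparison.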
